A study of Rattus norvegicus with 59 samples.

Results

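The regions described here are the 971 bins with the most H3K27me3 per kb among 9703 bins of the rat genome, called the dense bins. They were chosen on the mark itself: the mean of the sham and control columns, each in log2 RPM per bin (reads in the bin scaled to a common library size), minus the log2 of the bin length in kb, had to reach the 90th percentile, -0.42 log2 RPM per kb or 0.749 RPM per kb. Their high H3K27me3 in those 2 columns is therefore the choice and not a finding.

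H3K27me3, trimethylation of lysine 27 on histone H3, is written by Polycomb repressive complex 2 and lies over genes held silent, among them the developmental regulators that a differentiated cell no longer uses. It often forms domains far wider than a gene. H3K9me2, the second mark measured, is written by the G9a and GLP methyltransferases and covers large repressed parts of the genome.

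The study compared pathological with physiological growth of the heart in nuclei of male Sprague Dawley rats. Nuclei came from the left ventricle and were sorted for PCM1, a centriolar satellite protein used to pick out cardiomyocyte nuclei. Banded rats, of about 170 g, had a suture tightened around the ascending aorta and were kept after 6 weeks if the heart was hypertrophied without failing. Sham rats, also of about 170 g, had the operation without the tightening. Trained rats, of about 280 g, ran intervals on an inclined treadmill for 6 weeks, and control rats, also of about 280 g, were left out of the training. Each group had 4 samples for each mark, but the deposited tables hold 1 column per group and mark. The labels do not say that each sample is a separate animal, and the files give no read depth. No difference below therefore has a replicate check, an error or a p-value, and spreads given are over bins. The sort cannot be checked here, since the bins carry no gene names. Coordinates are those of the deposited bins, in a build that the sources used here do not name.

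The 10 densest bins lay on 8 chromosomes and measured 50.0 to 1410 kb. The densest, on chromosome 4 from 80445000 to 80565002, had 0.71 log2 RPM per kb in banded and 0.94 in sham rats, and 0.99 in trained and 1.02 in control rats. Banded rats were thus lowest there, by 0.23 below sham rats, while the other groups lay within a narrow range. The second, on chromosome 7 from 141635000 to 141875002, had 0.69 log2 RPM per kb in banded and 0.81 in sham rats, and 0.89 in both trained and control rats. On chromosome 3 from 57255000 to 57395002 the density was 0.63 in banded and 0.75 in sham rats, and 0.78 in both trained and control rats. On chromosome 10 from 84895000 to 85135002 it was 0.56 in banded and 0.72 in sham rats, against 0.73 in trained and 0.75 in control rats. In these 4 bins, picked out here after their values were seen, sham rats lay within 0.08 of control rats (differences of -0.07, -0.08, -0.03 and -0.02), and banded rats stood apart below the other groups.

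Another 5 of the 10 bins showed a wider gap between the experiments. On chromosome 3 from 136705000 to 136755002 the density was 0.54 in banded and 0.64 in sham rats, and 0.97 in trained and 0.92 in control rats. On chromosome 9 from 18035000 to 18085002 it was 0.44 in banded and 0.60 in sham rats, and 1.00 in trained and 0.90 in control rats. On chromosome 8 from 96285000 to 96375002 the values were 0.48 in banded and 0.67 in sham rats, and 0.88 in trained and 0.82 in control rats. In all of these the surgery columns were lower than the exercise columns. The pair on chromosome 1, from 265955000 to 266015002 and from 228995000 to 229065002, had 0.45 and 0.41 in banded rats, 0.59 and 0.58 in sham rats, 0.82 and 0.84 in trained rats and 0.82 in control rats for both. Across the 10 bins, banded minus sham ran from -0.23 to 0.04 and was below 0 in 9, and trained minus control ran from -0.03 to 0.10 and was below 0 in 3.

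H3K9me2 over the same bins, read from the overlapping H3K9me2 bins, also differed between the experiments. Over the densest bin, on chromosome 4, it was -1.36 log2 RPM per kb in banded and -1.42 in sham rats, and -0.50 in trained and -0.31 in control rats. Over the second, on chromosome 7, it was -1.32 in banded and -1.43 in sham rats, and -0.55 in trained and -0.35 in control rats. These bins thus had high H3K27me3 in all 4 groups and higher H3K9me2 in the exercise columns than in the surgery columns. H3K9me2 was lower in sham than in control rats in 9 of the 10 bins, by differences of -1.10 to -0.27 on the log2 scale. Banded rats had more H3K9me2 than sham rats in 8 of the 10, and trained rats less than control rats in 9.

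The exception was the bin on chromosome 16 from 26865000 to 28275002, ranked 3 by density. It held the most RPM of any H3K27me3 bin in every column, 2594 RPM in banded rats and 2522 RPM in each of the sham, trained and control columns. It lay inside an H3K9me2 bin of 7430 kb, from 23645001 to 31075001, whose value was the same in all 4 columns (12.57 log2 RPM) and the highest of that mark. Its H3K9me2 density, -0.29 log2 RPM per kb, was the highest mean over the 4 groups among the dense bins. The columns of a mark share nearly 1 set of sorted values, so identical numbers here do not show an unchanged mark. The match is not complete, since this bin ranked 1 by RPM in all 4 H3K27me3 columns and yet had the higher value in banded rats.

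**Figure D1:**
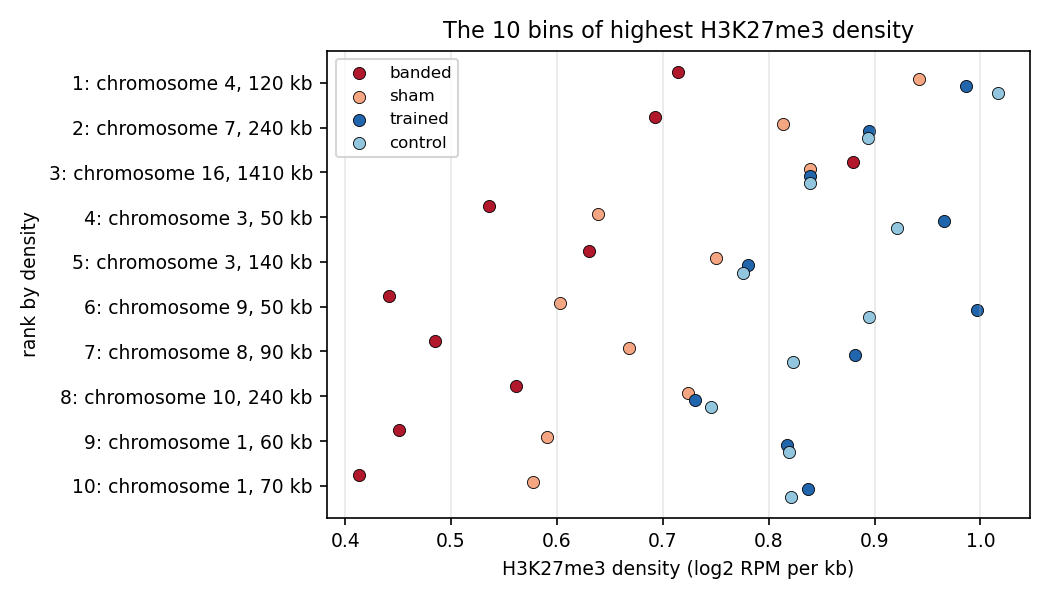
H3K27me3 density (log2 RPM per kb, horizontal axis) of the 10 densest bins, ranked from the top; each point is the column of 1 group. Banded points lie to the left of sham points in 9 of 10 bins, and the chromosome 16 bin has 3 points at 0.84.

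At the lower edge of the choice, the last 3 bins inside had -0.4166, -0.4166 and -0.4172 log2 RPM per kb, and the first 3 outside had -0.4192, -0.4194 and -0.4196. The last inside lay on chromosome 1 from 76145000 to 76235002 and the first outside on chromosome 1 from 184905000 to 185165002. The dense bins reached 0.98, and their median was -0.13 against -1.56 for all bins, or 0.912 RPM per kb, 2.69 times the level of the median bin. They covered 191 Mb, 7.62% of the 2510 Mb in bins. They held 16.8% of the RPM in banded and 17.4% in sham rats, and 20.5% in trained and 20.4% in control rats.

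Dense bins were shorter at the median than all bins, and most touched no other dense bin. Their median length was 130 kb (quartiles 80.002 and 240 kb), against 160 kb for all bins, although length is part of the density that chose them. Of bins under 100 kb, 12.3% were dense, and of bins of 1000 kb or more 3.34% were, 10 bins in all. The 3 longest were 1720 kb on chromosome 1 from 88375000 to 90095002, 1540 kb on chromosome 6 from 130745000 to 132285002, and the chromosome 16 bin. The chromosome 1 bin had -0.38 log2 RPM per kb in both banded and sham rats and -0.26 in both trained and control rats. The chromosome 6 bin had -0.29 in both banded and sham rats and -0.0041 in both trained and control rats. It formed the longest run of touching dense bins together with its neighbour, 2040 kb from 130245000, and the chromosome 1 and chromosome 16 bins were the next longest, each a run of 1 bin.

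In total the 971 bins fell into 875 runs, of which 69 held 2 or more bins and none more than 4. Of the dense bins, 165 (17.0%) touched another. With 1 other bin allowed between neighbours the share was 45.9%, and with the cut at the 80th percentile it was 28.9%. Per the file names the bins were made by circular binary segmentation, which sets edges where a level changes. Neighbouring bins therefore tend to differ by construction, and these shares are set in part by that. The median distance between consecutive dense bins on a chromosome was 730 kb, and 122 of 951 such distances exceeded 5 Mb. The longest stretch without a dense bin, named after its value was seen, was 31.4 Mb on chromosome 17 from 39335002 to 70735000.

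Chromosomes differed widely in their share of dense bins. Chromosome 10 had 16.7% of its covered length in dense bins (87 bins, 18.1 Mb) and chromosome 12 had 15.8% (34 bins, 7.23 Mb). Chromosome 1 followed with 10.8% and the most bins, 127. At the other end, chromosome 2 had 2.68% (51 bins, 6.78 Mb), chromosome 15 had 2.80% (26 bins) and chromosome 13 had 4.25% (25 bins). The chromosome with the largest share, chromosome 10, is far shorter than chromosome 2, which had the smallest (108 Mb covered against 253 Mb). Length did not order the shares, since chromosome 15 covered 109 Mb and had 2.80%, and chromosome 1 covered 261 Mb and had 10.8%. Within 5 Mb of the last bin of a chromosome lay 5.77% of dense bins, against 3.76% of the other bins, and within 5 Mb of the first coordinate lay 3.50% against 3.46%. These shares are descriptions, because neighbouring bins are not independent.

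**Figure D2:**
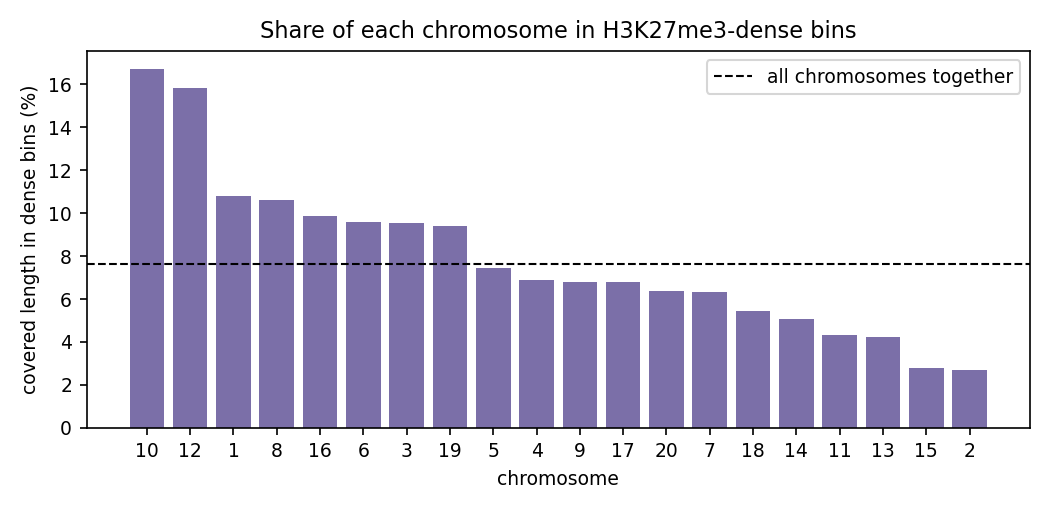
Share of the covered length of each chromosome (percent, vertical axis) that lies in dense bins, with chromosomes in order of that share; the dashed line is the share over all chromosomes, 7.62%. Chromosomes 10 and 12 stand above 15%, and chromosomes 15 and 2 lie below 3%.

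The bins directly beside a run of dense bins had a much lower level. They were counted once per run edge, so a bin between 2 runs was counted from both sides. The definition of a run bars them from being dense. Over these 1521 counts the median density was -1.45 in banded and -1.43 in sham rats, and -1.50 in trained and -1.47 in control rats. The step at the edge, the median of the dense bins minus the median of these neighbours, was 1.16 in banded and 1.17 in sham rats, and 1.54 in trained and 1.48 in control rats on the log2 scale. The choice of dense bins, the bar on their neighbours and the segmentation set this step in part. The exercise columns also had the wider spread over all bins (SD of 0.880 in trained and 0.838 in control rats, beside 0.683 in banded and 0.673 in sham rats). Of all 9703 bins, 971 were dense by the choice. At 2 bins away, again counted once per run edge, 26.1% were dense. At 3 bins away 12.6% were dense and at 4 bins away 21.2%, so the level alternated along the segments. Because segmentation tends to make neighbouring bins differ, this alternation is built into the bins in part and is not a separate finding.

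**Figure D3:**
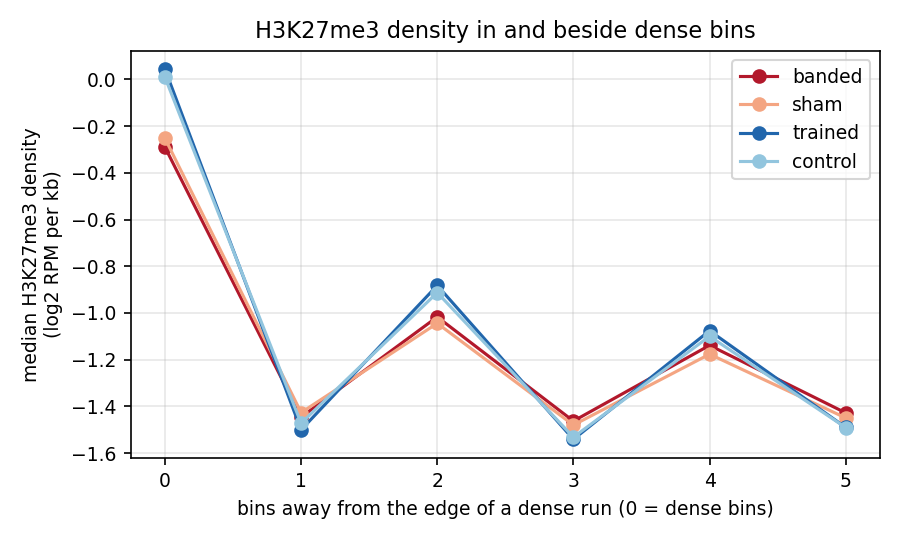
Median H3K27me3 density (log2 RPM per kb, vertical axis) of dense bins (0) and of bins 1 to 5 places beyond the edge of a run, 1 line per group. Bins beyond an edge are counted once per run edge. All 4 lines drop below -1.4 at the first neighbour, and the trained and control lines start higher, at 0.043 and 0.0088, than the banded and sham lines, at -0.29 and -0.25.

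Banded rats were compared with sham rats for the effect of pressure overload. The median density was -0.29 log2 RPM per kb in banded and -0.25 in sham rats, and the median difference over the dense bins was -0.044 on the log2 scale (-3.01%), with an SD over bins of 0.0716 and a range of -0.32 to 0.28. Banded rats were lower in 737 dense bins (75.9%), against 46.9% of all bins, and higher in 229 (23.6%), against 52.9%. No dense bin passed a difference of 0.5 in either direction (0 of 971, against 0.0412% of all bins), and 1 passed 0.3, against 1.75% of all bins. The medians were below 0 on all 20 chromosomes, from -0.068 on chromosome 9 to -0.019 on chromosome 13. The sham column helped to choose the bins and also stands in this contrast. With bins chosen on the control column alone, the median was -0.041 and 718 of 971 bins were lower in banded rats, 73.9%. The median was -0.066 with the cut at the 95th percentile of density and -0.020 at the 80th.

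The sign of the median differed along the density scale, when all bins were sorted into 10 classes of equal size. It was -0.044 in the densest class, 5.03e-04 in the next, between 0.022 and 0.049 in classes 4 to 8, and -0.060 and -0.055 in the sparsest 2. The single dense bin past 0.3 was a short one, 20.0 kb on chromosome 19 from 38395000 to 38415002, with 10.3 RPM in banded and 12.8 RPM in sham rats (difference -0.32). The next lower values were on chromosome 9 from 88995000 to 89055002 (49.7 RPM in banded, 60.1 RPM in sham rats, -0.27) and on chromosome 8 from 83455000 to 83535002 (63.0 RPM in banded, 74.5 RPM in sham rats, -0.24). The largest excess in banded rats was on chromosome 4 from 150765000 to 150785002, again 20.0 kb, with 15.2 RPM in banded and 12.5 RPM in sham rats (0.28). A dense bin of 50.0 kb on chromosome 10 from 84815000 to 84865002 also had more in banded rats, 41.4 RPM against 35.6 RPM in sham rats (0.22). The dense bin that follows it, of 30.0 kb from 84865000 to 84895002, also had more in banded rats (0.12). Next to that lies the bin from 84895000 described above. That one had less in banded rats (354 RPM against 396 RPM in sham rats), so close neighbours differed in direction. Regions named for their differences, here and for the other comparisons, were chosen after their values were seen. The median difference was -0.027 in dense bins under 100 kb and -0.065 in those of 250 to 500 kb, and its SD over bins was wider in the short ones, 0.0888 against 0.0472. In 5 dense bins, 4 of them over 1000 kb, banded and sham values were identical.

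Trained rats were compared with control rats for the effect of exercise. The median density was 0.043 log2 RPM per kb in trained and 0.0088 in control rats, and the median difference over the dense bins was 0.015 on the log2 scale (1.03%), with an SD over bins of 0.0615 and a range of -0.23 to 0.32. Trained rats were higher in 599 dense bins (61.7%), against 54.7% of all bins, and lower in 358 (36.9%), against 44.8%. The excess was not largest in the dense bins. In the next of the 10 density classes, 712 bins (73.4%) were higher in trained rats, and the median difference was 0.035. The median lay between 0.020 and 0.043 in classes 5 to 8, and between -0.075 and -0.015 in classes 1 to 4. No dense bin passed 0.5 (0 of 971, against 0.124% of all bins), and 1 passed 0.3, against 0.948% of all bins. With bins chosen on the sham column alone the median was 0.012, beside 0.0096 over all bins, and 584 of 971 bins were higher in trained rats (60.1%). The median was 0.0069 with the cut at the 95th percentile, 0.024 at the 80th, and 0.0052 after centring on all bins. Chromosome medians lay from -0.020 on chromosome 20 to 0.050 on chromosome 15, with 15 of 20 above 0. The bin past 0.3 lay on chromosome 15 from 475000 to 515002, with 56.8 RPM in trained and 45.7 RPM in control rats (0.32). The same bin had 28.1 RPM in banded and 32.5 RPM in sham rats. The lowest difference was on chromosome 8 from 58515000 to 58675002, with 133 RPM in trained and 156 RPM in control rats (-0.23). Another was on chromosome 13 from 86875000 to 86985002, ranked 21 by density, with 141 RPM in trained and 162 RPM in control rats (-0.20). By length the median ran from 0.042 under 100 kb to -0.0096 in bins of 250 to 500 kb, so short bins had the larger excess in trained rats. Across the dense bins the differences of banding and of training, which share no column, gave Pearson's r = 0.0987 and Spearman's rho = 0.136 over 971 bins. Over all 9703 bins r was 0.514 and rho 0.489. These are not directly comparable, since banded minus sham spread less over dense bins (SD 0.0716, against 0.117 over all bins). Over all bins the medians of both differences also varied with density. Bins of a column share their libraries and are not independent, so no p is given.

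Sham and control are the 2 columns that chose the bins, and their difference is given here as a description that supports nothing further. The density of H3K27me3 was more widely spread over all bins in the exercise columns, with an SD of 0.683 in banded and 0.673 in sham rats, and 0.880 in trained and 0.838 in control rats. A high mean of both columns may favour bins that are higher in the wider one, control, and this was not tested. Sham rats were below control rats in 964 of 971 dense bins (99.3%), against 51.4% of all bins. The median difference was -0.26 on the log2 scale, or -16.6% (SD over bins 0.128). In all, 47 dense bins (4.84%) passed 0.5, against 3.14% of all bins. All 47 were lower in sham rats, against 1.33% of all bins, and 0 were higher, against 1.81%. With a pseudocount at the 10th percentile of RPM per bin, 3 bins passed 0.5. With bins chosen on the sham column alone 27 passed and the median difference was -0.24. With bins chosen on the control column alone 61 passed and the median difference was -0.28. With bins chosen on the banded and trained columns, 49 passed and the median difference was -0.27. That choice used neither sham nor control, but it too joined a narrower column with a wider one. At 0.3, 369 dense bins passed (38.0%, against 23% of all bins). The chromosome medians were below 0 on all 20, from -0.36 on chromosome 15 to -0.19 on chromosome 20. Of the 47 bins, 42 were under 100 kb, and the median there was -0.36, against -0.17 in the 10 bins of 1000 kb or more. The largest sham deficit was on chromosome 3 from 79655000 to 79675002, with 11.7 RPM in sham and 20.0 RPM in control rats (-0.78). The largest excess was on chromosome 20 from 3235000 to 3615002, with 631 RPM in sham and 476 RPM in control rats (0.41), where banded rats had 596 RPM and trained rats 432 RPM. Over the 10 density classes the median ran from 0.22 in the sparsest to -0.26 in the densest. How much of the difference comes with the unequal spread was not tested. Sham and control rats differed in start weight, surgery and experiment at once, and these cannot be told apart.

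Trained rats had the highest H3K27me3 value in 612 dense bins (63.0%, against 38.5% of all bins) and control rats in 365 (37.6%, against 11.4%), ties counted for both. Banded rats had the lowest value in 737 (75.9%, against 21.4% of all bins) and sham rats in 232 (23.9%, against 31.1%). Sham and control again chose the bins, so these counts and the overlaps that follow are partly set by the choice. Of the 971 dense bins, 92.5% were among the top 10% of the banded column, 93.4% among the top 10% of the sham column, 90.4% among the top 10% of the trained column and 95.2% among the top 10% of the control column. All 4 columns held 804 of them (82.8%).

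H3K9me2, which had no part in the choice, was next read over the dense bins as its density in the overlapping H3K9me2 bins, weighted by overlapped length. The median in dense bins was -1.29 log2 RPM per kb in banded and -1.33 in sham rats, and -0.94 in trained and -0.89 in control rats. In all bins it was -1.37 in banded and -1.35 in sham rats, and -1.38 in trained and -1.39 in control rats. Dense bins therefore carried more H3K9me2 than the median bin by 0.077 in banded and 0.017 in sham rats, and by 0.44 in trained and 0.51 in control rats. In the surgery columns 21.5% (banded) and 12.8% (sham) of dense bins belonged to the top 10% of bins by H3K9me2 density, and in the exercise columns 56.5% (trained) and 58.6% (control) did. The dense bins thus stood well above the common H3K9me2 level in the exercise columns and close to it in the surgery columns. Over all 9703 bins the Spearman rho between the densities of the marks was 0.31 in banded and 0.20 in sham rats, and 0.68 in trained and 0.67 in control rats, a description of bins that share their libraries. The SD of H3K9me2 density over all bins was 0.248 in banded and 0.242 in sham rats, and 0.357 in trained and 0.386 in control rats. The overlapping H3K9me2 bins were longer, with a median of 299 kb, so a short dense bin takes the value of its surroundings. Dense bins inside the same H3K9me2 bin take the same value, so counts of dense bins for this mark repeat some readings.

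**Figure D4:**
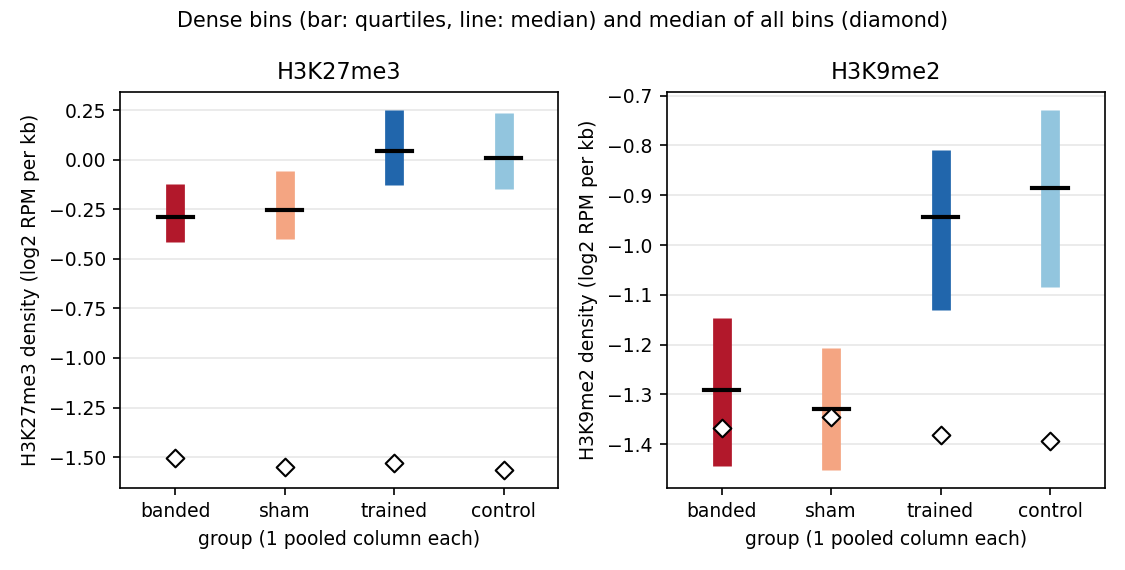
Density of H3K27me3 (left) and H3K9me2 (right) in log2 RPM per kb for the 4 group columns: coloured bars span the quartiles over 971 dense bins, black lines are their medians and diamonds the medians of all 9703 bins. The trained and control bars stand above the banded and sham bars for both marks, and for H3K9me2 the sham line (-1.33) lies next to its diamond (-1.35).

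Sham rats had less H3K9me2 than control rats in 895 dense bins (92.2%), against 49% of all bins, with a median difference of -0.43 on the log2 scale (-25.7%). In the next of the 10 density classes 81.0% of bins were lower in sham rats, with a median of -0.21. Past 0.5 were 386 dense bins lower in sham rats (against 5.26% of all bins) and 8 higher (against 11.1%). Both marks were lower in sham rats in 891 dense bins (91.8%), against 37.2% of all bins. Within the experiments the H3K9me2 differences were small. The median of banded minus sham was 0.034, and banded rats were higher in 620 dense bins (63.9%, against 51.2% of all bins), the opposite direction to H3K27me3. In the next density class the median was 0.029 and 60.4% were higher, so this was not particular to the dense bins. The median of trained minus control was -0.047, and trained rats were lower in 748 dense bins (77.0%, against 43% of all bins), again opposite to H3K27me3. In the next density class the median was -0.012 and 58.6% were lower. In 470 dense bins (48.4%) banded rats had less H3K27me3 and more H3K9me2 than sham rats, against 16.8% of all bins. In 478 dense bins (49.2%) trained rats had more H3K27me3 and less H3K9me2 than control rats, against 29.8% of all bins. These joint shares also reflect the share of each mark alone. Across the dense bins the banded minus sham differences of the 2 marks were almost uncorrelated (Pearson's r = 0.0020, against 0.425 over all bins). For trained minus control r was -0.24 in the dense bins and -0.33 over all bins. The dense bins cover only part of the density range, along which these differences varied. Their r values are therefore not directly comparable with those over all bins. None of the dense bins passed 0.5 for H3K9me2 within an experiment (0 for banded minus sham and 0 for trained minus control, against 0.0412% and 0.0206% of all bins).

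**Figure D5:**
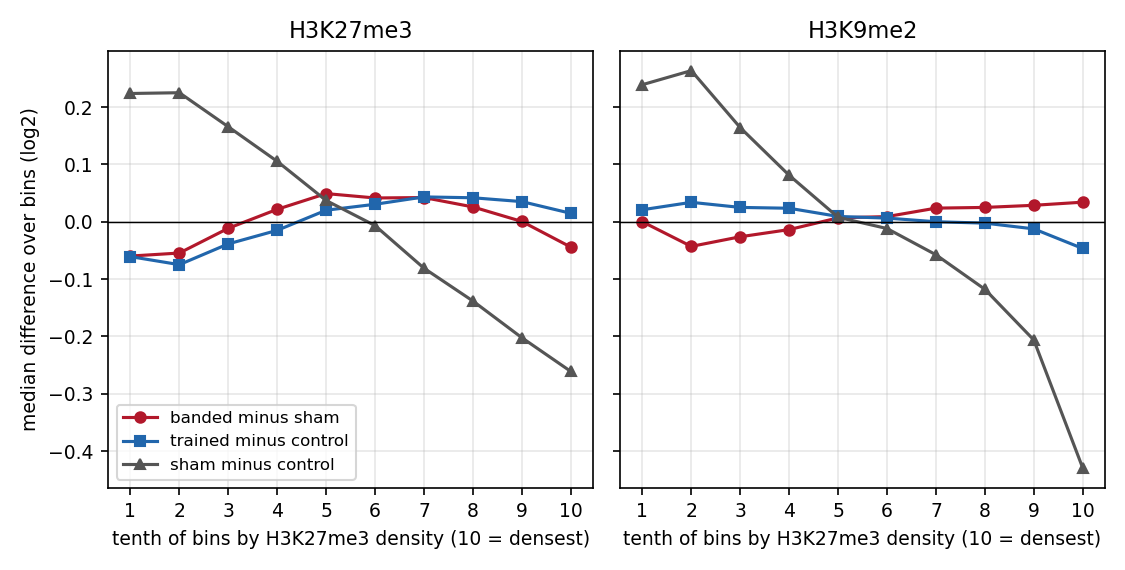
Median difference over bins (log2, vertical axis) of H3K27me3 (left) and H3K9me2 (right) in 10 equal classes of bins by H3K27me3 density, from sparsest (1) to densest (10). Sham minus control runs from 0.22 to -0.26 for H3K27me3 and from 0.24 to -0.43 for H3K9me2, while banded minus sham and trained minus control stay within 0.08 of 0.

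A few dense bins had little H3K9me2. The lowest was on chromosome 7 from 142035000 to 142085002, at -2.77 log2 RPM per kb in banded and -2.66 in sham rats, and -2.70 in trained and -2.64 in control rats, with H3K27me3 at -0.37, -0.52, -0.22 and -0.17 in the same order of groups. Next came chromosome 16 from 84705000 to 84855002, with a mean over the 4 groups of -2.44, and chromosome 14 from 1505000 to 1545002, with -2.27. All 4 groups had similarly low H3K9me2 in the chromosome 7 bin. That bin lies shortly beyond the second densest bin, whose mean H3K9me2 was -0.92. By the mean of the 4 groups, 19 dense bins (1.96%) were among the lowest 10% of bins in H3K9me2 density and 421 (43.4%) among the highest 10%. After the chromosome 16 bin described above, the highest H3K9me2 was on chromosome 14 from 4025000 to 4995002 (-0.50) and on chromosome 17 from 3515000 to 3595002 (-0.62). The chromosome 14 bin also had more H3K27me3 in the surgery columns, 0.07 in banded and -0.03 in sham rats, than in trained (-0.19) and control rats (-0.15), against the common order.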

How the data were processed

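The authors deposited log2 RPM values of both marks in bins of unequal length, 1 column for each group. Per the file names, circular binary segmentation made the bins. The submitters' processing notes list edgeR, R 2.15.1, SAMtools and Bowtie, with no roles. Not given in the sources used here are the genome build, the read depth, the use of inputs and how 4 samples became 1 column. The bins were not shown to be in GRCr8, the assembly of the gene table at hand: its last gene ends beyond the last bin on 9 of 20 chromosomes, and the last bin ends over 1 Mb beyond that gene on 9. Gene names and sequences were therefore not placed on the bins, and RNA tables were not used. Sorted values of the columns of a mark were nearly the same (for H3K27me3, 90.1% or more within 0.001 of the control column), so a change over the whole genome cannot show.

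Density, overlaps and differences were computed with scipy 1.17.1, numpy 2.4.6 and pandas 2.3.3 under Python 3.11.15, and tested on simulated data. Figures used matplotlib 3.10.9. Coordinates are as deposited, and touching bins overlap by 2 bases. Named regions are the 10 densest, the 3 longest, the 3 longest runs, the 3 highest and lowest in H3K9me2, those at the cut, chromosomes with the 3 highest and lowest shares, and, chosen after their values were seen, those with the largest differences. The regions and comparisons were chosen with earlier results of these data known.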

Additional observations from a re-analysis of the deposited data

How the results depend on the processing

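Of 93 recomputed values, 56 stayed near the reported value. Near means within its 95% binomial interval (medians and shares), within 1.5 times (counts) or within 5% (share of length). Among the 56, 10 for banded minus sham and 10 for trained minus control were counts past the limit that stayed at 0. A limit of 1 could not have raised these counts. Only differences on the log2 scale can change sign, and 0 did. The intervals treat bins as independent, which they are not, so they are only a yardstick for size and not an error. With the cut at the 95th and 80th percentiles the share of length was 3.497% and 16.002%, the share of touching bins 13.2% and 28.9%, and the H3K9me2 excess over all bins 0.32 and 0.21. Banded minus sham was then -0.066 and -0.020, trained minus control 0.0069 and 0.024, and sham minus control -0.28 and -0.24 (H3K9me2 -0.56 and -0.30), with 21 and 80 bins past 0.5. From the control column alone the share of length was 7.19% and sham minus control -0.28. From the sham column alone the length was 150 kb, the share 8.21% and sham minus control -0.24 with 27 bins past 0.5. From the banded and trained columns, banded minus sham was -0.039 and trained minus control 0.019. With 1 other bin allowed between neighbours, 45.9% of dense bins touched another. The H3K9me2 excess was 0.047 from the banded and sham columns and 0.47 from the trained and control columns. A pseudocount at the 10th percentile gave -0.038 for banded minus sham and -0.23 for sham minus control, with 3 bins past 0.5. Centring on all bins gave -0.052, 0.0052 and -0.25 for banded minus sham, trained minus control and sham minus control. At a limit of 0.3, 1, 1 and 369 bins passed for banded minus sham, trained minus control and sham minus control, and at 1, 0 passed for sham minus control. The recomputations of sham minus control were added after its size was seen. The cause of these shifts was not tested.

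No paired analysis was possible because each group has 1 pooled column, and for the same reason no sample was left out in turn. The bins lie on chromosomes 1 to 20, so restricting to autosomes gave no other value. The depth behind a bin is unknown, and bins of 20.0 kb hold as little as 10.3 RPM.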
